A study of Mus musculus with 74 samples.

Results

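The RNA of line 3205, a derivative of the mouse macrophage-like cell line RAW264.7, was compared with that of wild-type RAW264.7 cells, both at 120 min of stimulation with bacterial lipopolysaccharide (LPS). The genes are all those that averaged 1 normalized read or more over the 12 libraries of the 120 min table, which is 17450 of the 24851 in it. The study asked how phosphorylation of the histone variant H3.3 bears on stimulated transcription, and its design text lists wild-type RAW264.7 cells, hypomorphic lines and CRISPR-made lines without H3f3a and H3f3b. The labels name the lines by number only, so they do not say which of those descriptions line 3205 fits, whether it is 1 clone, where its genes were cut, or what LPS dose the lines received. A tissue field calls these libraries bone marrow derived macrophages, while the source field calls them RAW264.7 cells. Each group had 2 libraries. The groups used were line 3205 at 120 min, line 3205 unstimulated (0 min) and at 60 min, line 264 (another of the study's RAW264.7 derivatives, also known only by number) at 0, 60 and 120 min, and wild-type RAW264.7 at 0, 60 and 120 min. Line 264 at 60 min entered only the fits and the checks over libraries.

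H3.3 is the histone H3 variant that is deposited outside DNA replication, at active genes among other places, and it is made from H3f3a and H3f3b, whose messages encode the same protein. LPS binds CD14 and the receptor TLR4 and signals through NF-kB and MAP kinases to the immediate early and cytokine genes, and through IRF3 to Ifnb1. Secreted interferon beta then raises the interferon-stimulated genes through its receptor, so these genes follow later than the early cytokines.

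The line 3205 libraries at 120 min held 51041425 and 50232554 counted reads, and the RAW264.7 libraries at 120 min held 28162576 and 29387007. All values below are normalized reads, that is reads divided by the authors' size factor of the library, and 1 read was worth 0.645 and 0.694 of these in the line 3205 libraries and 1.33 and 1.26 in the RAW264.7 libraries. Fold changes are differences of log2(normalized reads + 1), line 3205 minus RAW264.7, with their standard error (SE) from limma over 12 libraries, and a gene was called at an adjusted p (Benjamini-Hochberg over 17450 genes) below 0.05. Nothing in the labels says that the 2 libraries of a group came from separate cultures, so the p-values measure the spread between these libraries, which may be technical. In bulk RNA, fewer cells of a type and less RNA per cell cannot be told apart.

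The H3.3 genes were read first as a check of the label. H3f3a (chromosome 1, 180802560 to 180813605, GRCm38.p6) had 53.5 and 37.5 normalized reads in line 3205, against 3109 and 2438 in RAW264.7. The log2 fold change was -5.91 ± 0.26 (adjusted p = 1.1e-06). H3f3b (chromosome 11, 116021961 to 116026039) had 11416 and 13284 normalized reads in line 3205, against 34155 and 33056 in RAW264.7, a log2 fold change of -1.45 ± 0.15 (adjusted p = 0.00019). Both genes were lower in line 3205 with no overlap between the groups, and H3f3b still gave an abundant message in line 3205. These are RNA levels over the whole gene, so they do not show whether the remaining message encodes a whole protein. Of the other genes around H3.3, the de novo DNA methyltransferase gene Dnmt3a had 1994 and 2450 normalized reads in line 3205, against 10037 and 11601 in RAW264.7 (log2 fold change -2.29 ± 0.13, adjusted p = 4.9e-06). The H3K36 methyltransferase gene Nsd1 had 3.9 and 11.1 normalized reads in line 3205, against 261.0 and 265.1 in RAW264.7 (-5.10 ± 0.71, adjusted p = 0.0012). The H3.3 chaperone gene Daxx had 1982 and 1765 in line 3205, against 7758 and 5810 in RAW264.7 (-1.84 ± 0.30, adjusted p = 0.0031), and was named after its values were seen. Of the 28 tested genes in the list of H3.3 genes, chaperones and H3K36 enzymes and readers, 2 were called higher and 6 lower, beside 7.94% higher and 5.99% lower of all tested genes, and 0 were called higher when any 1 of the 4 libraries was left out. Among those that were not called, the chaperone gene Hira had a log2 fold change of 0.20 and the H3K36 methyltransferase gene Setd2 one of -0.07.

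**Figure D1:**
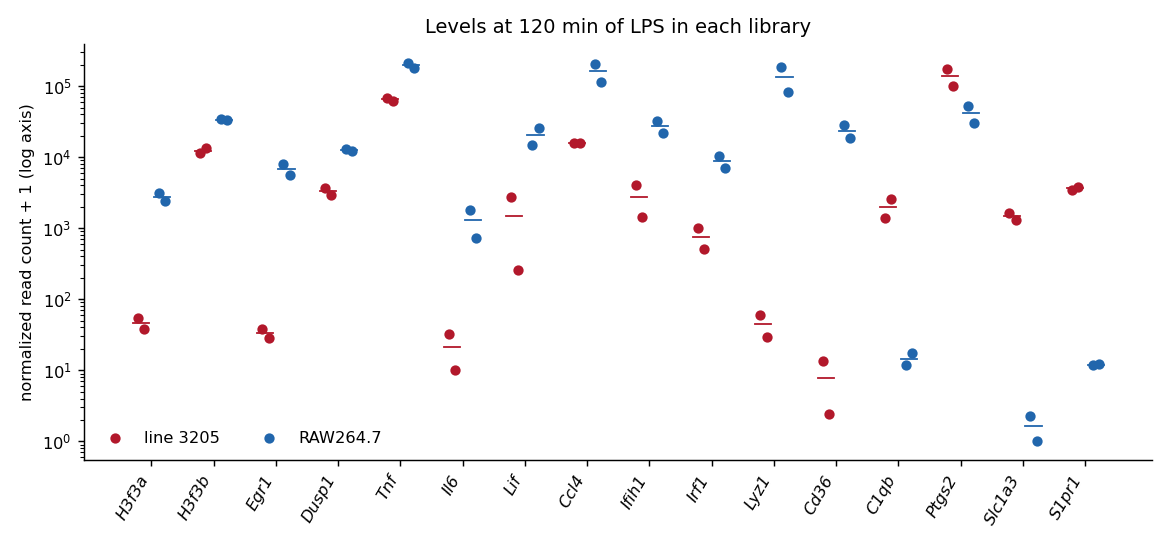
Normalized reads plus 1 (log axis) of 16 genes in each library at 120 min, line 3205 left of RAW264.7, with points for the 2 libraries of a group and a bar for their mean. Egr1, H3f3a, Lyz1 and Cd36 sit far lower in line 3205, and C1qb, Slc1a3 and S1pr1 far higher, with no overlap of the libraries.

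Across all genes, 1385 were called higher in line 3205 (7.94% of those tested) and 1045 lower (5.99%). Of these calls, 925 of the higher and 676 of the lower had a fold change of at least 2. With the replicate number as a block, which pairs the libraries, 2563 were called higher (14.7%) and 2190 lower (12.6%). The median log2 fold change over all tested genes was 0.01. Leaving out 1 of the 4 compared libraries at a time changed the counts: 855 higher and 747 lower without line 3205 replicate 1, 770 and 501 without line 3205 replicate 2, 672 and 437 without RAW264.7 replicate 1, and 856 and 630 without RAW264.7 replicate 2. In the authors' deposited table, whose p-values test against a log2 change of 1, 349 genes were higher (1.98%) and 256 lower (1.45%) of 17624, and 100.0% of these were called here too.

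**Figure D2:**
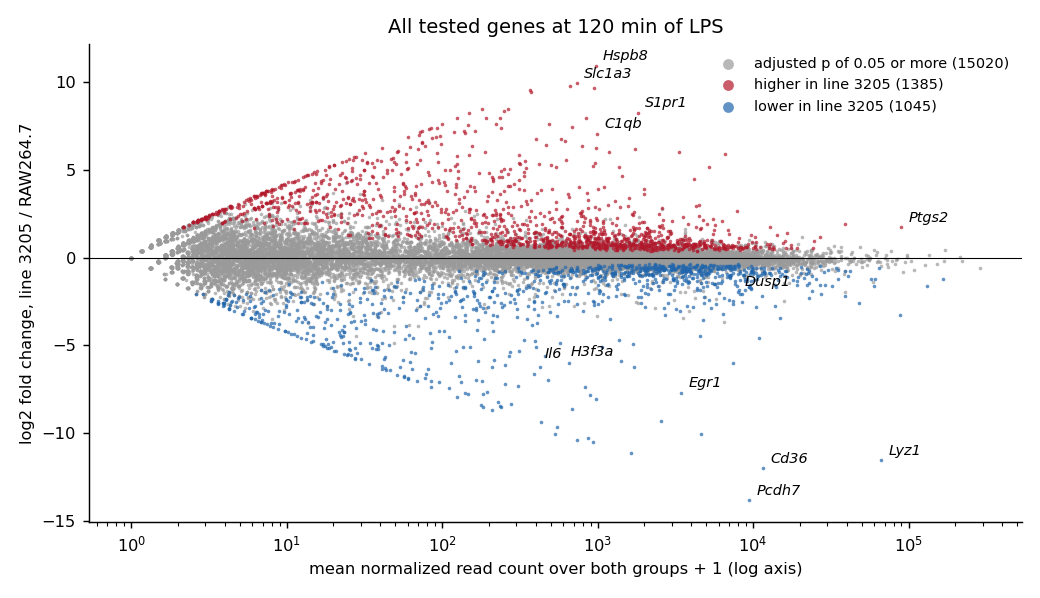
Log2 fold change of line 3205 over RAW264.7 at 120 min (vertical axis) against the mean normalized reads over the 4 libraries plus 1 (horizontal log axis), 1 point per tested gene. The 1385 red points were called higher and the 1045 blue points lower, and changes beyond 5 on the log2 scale occur in both directions at high levels.

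A minority of the differences were between presence and absence of a message. Of the 1385 genes called higher, 110 had a log2 change of at least 5, and 106 of the 1045 called lower fell by as much. In line 3205, 57 of the 17450 tested genes had at most 3 reads over both libraries while RAW264.7 averaged at least 50 normalized reads. Of these 57, line 3205 also had at most 3 reads at 0 min for 52. The reverse held for 70 genes, of which 45 also had at most 3 reads in RAW264.7 at 0 min. So most of these genes were off in the same line before LPS was given.

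The 10 largest decreases and 10 largest increases among called genes, with a mean of at least 50 in the higher group, were read one by one. Pcdh7, a protocadherin of the cell surface, had 0.0 and 0.7 normalized reads in line 3205, against 19674 and 18090 in RAW264.7. That is 1 read against 29101, a ratio of 56400 with a 95% counting interval of 10100 to 2230000. Cd36, a scavenger receptor that takes up oxidized lipids, had 12.3 and 1.4 normalized reads in line 3205, against 27929 and 18410 in RAW264.7 (log2 fold change -11.98 ± 0.91, adjusted p = 2.9e-05). In both genes the groups lie far apart and do not overlap. Lyz1, a lysozyme gene, had 58.7 and 28.5 normalized reads in line 3205, against 182938 and 83313 in RAW264.7 (-11.52 ± 0.48, adjusted p = 8.5e-07). Its neighbour Lyz2, a close copy, was abundant in both, at 120892 and 81284 in line 3205 against 253642 and 213734 in RAW264.7, and counting may have split reads between the pair. Cxcl16, a membrane-bound chemokine that also acts as a scavenger receptor, had 8.4 and 6.9 in line 3205, against 11282 and 7319 in RAW264.7 (-10.04 ± 0.55, adjusted p = 3.8e-06). Ica1 had no read in either line 3205 library, against 1059 and 1076 normalized reads in RAW264.7, at least 1060-fold lower by a floor of 3 reads over the group. The remaining genes of this group of 10, Tmem26, Slc30a4, Ppic, Enpp4 and Lipg (an endothelial lipase), likewise had at most 1 read over both line 3205 libraries.

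Among the increases, Hspb8, a small heat shock protein gene, had 1827 and 2047 normalized reads in line 3205, against no read in either RAW264.7 library, at least 994-fold higher. Slc1a3, which encodes a glutamate transporter, had 1656 and 1294 in line 3205, against 1.3 and 0.0 in RAW264.7, a ratio of 2290 with a 95% counting interval of 410 to 90300. Tie1, a receptor tyrosine kinase gene known from endothelium, had 1036 and 440 in line 3205, against no read in RAW264.7, at least 385-fold higher. These genes were silent in RAW264.7 and moderately expressed in line 3205. S1pr1, a receptor for sphingosine 1-phosphate, had 3463 and 3803 normalized reads in line 3205, against 10.7 and 11.4 in RAW264.7 (log2 fold change 8.24 ± 0.41, adjusted p = 2.2e-06). Mylk, the myosin light chain kinase gene, had 1912 and 1853 in line 3205, against 1.3 and 1.3 in RAW264.7, a ratio of 1450 with a 95% counting interval of 402 to 12000. P2ry14, a receptor for UDP-sugars, had 527 and 460 in line 3205, against 0.0 and 1.3 in RAW264.7, a ratio of 764 with a 95% counting interval of 137 to 30200. The group of 10 also held Klhl30, Tmem40, Afap1 and Rhox2g, and Rhox2g belongs to a family of near-identical copies, so its reads cannot be placed with certainty.

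The same contrast at 0 and 60 min uses other libraries of the same lines. Of the 1385 genes called higher at 120 min, 953 (68.8%) were also called higher at 0 min, when 7.12% of all genes were. At 60 min, 1059 of the 1378 tested (76.9%) were called higher, against a background of 8.95%. Of the 1045 genes called lower at 120 min, 586 (56.1%) were also called lower at 0 min (background 4.62%), and 685 of 1020 (67.2%) at 60 min (background 6.46%). Among the genes called higher at 0 min, 76.7% were called higher at 120 min, and among those called lower at 0 min, 72.6% were called lower at 120 min. Over 17077 genes tested at both times, the log2 fold changes at 120 and 60 min had a Pearson correlation of 0.86 and a Spearman correlation of 0.69, given as a description across genes of the same 2 lines. Most calls between the lines at 120 min were thus also made without LPS.

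Cytokine and chemokine genes were the first LPS-induced group examined. Of 31 tested, none was called higher and 8 lower (25.8%, beside 5.99% of all genes), and 27 had a negative fold change, with a median of -0.88 beside 0.01 over all genes. The count of 0 higher was also 0 at an unadjusted p below 0.05, by edgeR and by DESeq2, and was 1 with the replicate block, which called 13 lower. Over all genes the block called 14.7% higher and 12.6% lower. The number called lower was 4 without RAW264.7 replicate 1, 4 without line 3205 replicate 2, 6 without RAW264.7 replicate 2 and 9 without line 3205 replicate 1. At 0 min, 5 were called lower and the median was -0.39, and at 60 min 7 of 29 were called lower and the median was -1.18. The interleukin 6 gene Il6 had 30.97 and 9.03 normalized reads in line 3205, against 1831 and 737 in RAW264.7 (log2 fold change -6.02 ± 0.83, adjusted p = 0.0011). The chemokine gene Ccl4 had 15962 and 15652 in line 3205, against 207494 and 115173 in RAW264.7 (-3.29 ± 0.62, adjusted p = 0.0068), and without RAW264.7 replicate 1 its adjusted p was 0.069. Tnf had 68394 and 61581 in line 3205, against 212251 and 181696 in RAW264.7 (-1.60 ± 0.40, adjusted p = 0.027). The libraries of the groups did not overlap for any of these 3, but the call of Tnf was lost when any 1 of the 4 libraries was left out, at adjusted p from 0.082 to 0.16.

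Lif, an interleukin 6 family cytokine gene named after its values were seen, had 2707 and 254 normalized reads in line 3205, against 14895 and 25990 in RAW264.7 (log2 fold change -4.57 ± 0.94, adjusted p = 0.010, and 0.073 without RAW264.7 replicate 2). Several hallmark LPS genes did not pass the test, by which 7.94% of all genes were called higher and 5.99% lower. With the replicate block these shares of all genes were 14.7% and 12.6%. The interferon beta gene Ifnb1 had 2265 and 1403 in line 3205, against 3794 and 1947 in RAW264.7, and the ranges overlapped. Il1b had 35885 and 5180 in line 3205, against 79992 and 35316 in RAW264.7 (adjusted p = 0.40, and 0.013 with the replicate block). Nos2, the inducible nitric oxide synthase gene, had 6823 and 2253 in line 3205, against 940 and 341 in RAW264.7 (adjusted p = 0.28, and 0.0044 with the replicate block). The ranges of Il1b overlapped and those of Nos2 did not, and for Ifnb1, Il1b and Nos2 alike replicate 1 was above replicate 2 in both groups. Ptgs2, which encodes the prostaglandin synthase COX-2, ran the other way from the cytokines: it had 175621 and 100507 in line 3205, against 52445 and 29976 in RAW264.7 (log2 fold change 1.74 ± 0.41, adjusted p = 0.020). That call was lost without RAW264.7 replicate 2 (adjusted p = 0.14) and without line 3205 replicate 1 (0.12). The secondary response list, whose members include both directions, had 6 of 25 called higher and 3 lower (7 and 9 with the replicate block, and 3 and 2 higher without RAW264.7 replicate 2 and without line 3205 replicate 1).

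The NF-kB pathway and its feedback genes were lower as a group by count. Of 33 tested, 1 was called higher (3.03%) and 12 lower (36.4%), beside 7.94% and 5.99% of all genes. With the replicate block these shares of all genes were 14.7% and 12.6%. A negative fold change was seen for 31, and the median was -0.56. At 0 min 8 were called lower and the median was -0.39, and at 60 min 17 were called lower and the median was -0.65. The number called lower fell to 3 without RAW264.7 replicate 1, to 3 without line 3205 replicate 2 and to 7 without RAW264.7 replicate 2, was 11 without line 3205 replicate 1, and was 21 with the replicate block. Nfkb1, which encodes the p105 precursor of the p50 subunit, had 12372 and 12157 normalized reads in line 3205, against 27818 and 25145 in RAW264.7 (log2 fold change -1.11 ± 0.16, adjusted p = 0.0015). Tnfaip3, which encodes the feedback inhibitor A20, had 9955 and 12557 in line 3205, against 34331 and 31941 in RAW264.7 (-1.57 ± 0.20, adjusted p = 0.00069). Both calls held with each of the 4 libraries left out in turn. Nfkbia, the gene of the inhibitor IkB alpha, had 24723 and 21906 in line 3205, against 37677 and 37780 in RAW264.7 (-0.70 ± 0.13, adjusted p = 0.0075), and its call was lost without RAW264.7 replicate 1 (0.055) and without line 3205 replicate 2 (0.064).

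Immediate early genes, which are switched on without new protein synthesis, had more calls lower than higher. Of 32 tested, 1 was called higher (3.12%, beside 7.94% of all genes) and 7 lower (21.9%, beside 5.99%), with a median of -0.61. The replicate block called 10 of them lower, and 14.7% of all genes higher and 12.6% lower. At 0 min 2 were called higher and 9 lower, with a median of -0.74, and the median response difference over the list was 0.33. The number called higher was 2 without RAW264.7 replicate 2, 3 without line 3205 replicate 1 and 3 with the replicate block. Egr1, a zinc finger transcription factor gene, had 36.8 and 27.8 normalized reads in line 3205, against 8019 and 5688 in RAW264.7 (log2 fold change -7.68 ± 0.31, adjusted p = 8.3e-07). Its loss was present at 0 min (-8.64) and 60 min (-7.80), and line 264 at 120 min did not share it (-0.11, adjusted p = 0.90). The difference between line 3205 and line 264 was itself called (-7.57, adjusted p = 1.2e-06). Junb, an AP-1 subunit gene, had 14464 and 16122 in line 3205, against 33702 and 37606 in RAW264.7 (-1.22 ± 0.20, adjusted p = 0.0031). Ier5 was the 1 member called higher, at 7292 and 8782 in line 3205 against 3902 and 4513 in RAW264.7 (0.93 ± 0.14, adjusted p = 0.0017).

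Interferon-stimulated genes were called lower at 120 min and not at 0 min. The direct test of the change between these times, the response difference given below, called 0 of the 40. With the replicate block it called 3 of them lower. Of 40 tested, none was called higher and 14 were called lower (35.0%), beside 7.94% and 5.99% of all genes. A negative fold change was seen for 39, and the median was -1.51. At an unadjusted p below 0.05, 0 were higher and 26 lower. edgeR called 0 higher and 12 lower, DESeq2 0 and 19, and the replicate block 0 and 34. Of all genes at 120 min, the block called 14.7% higher and 12.6% lower. The number called lower was 2 without RAW264.7 replicate 1, 4 without line 3205 replicate 2, 6 without RAW264.7 replicate 2 and 15 without line 3205 replicate 1. At 0 min the median was -0.00 with no call in either direction (limma; 3 higher and 1 lower at an unadjusted p below 0.05, none by edgeR, 3 higher by DESeq2, and 4 higher and 1 lower with the replicate block, when 12.9% and 10.3% of all genes were). At 60 min 2 were called higher and 3 lower, with a median of -0.06. The summed level of the 40 genes was 129714 and 62616 normalized reads in line 3205, against 389854 and 235782 in RAW264.7, without overlap.

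**Figure D3:**
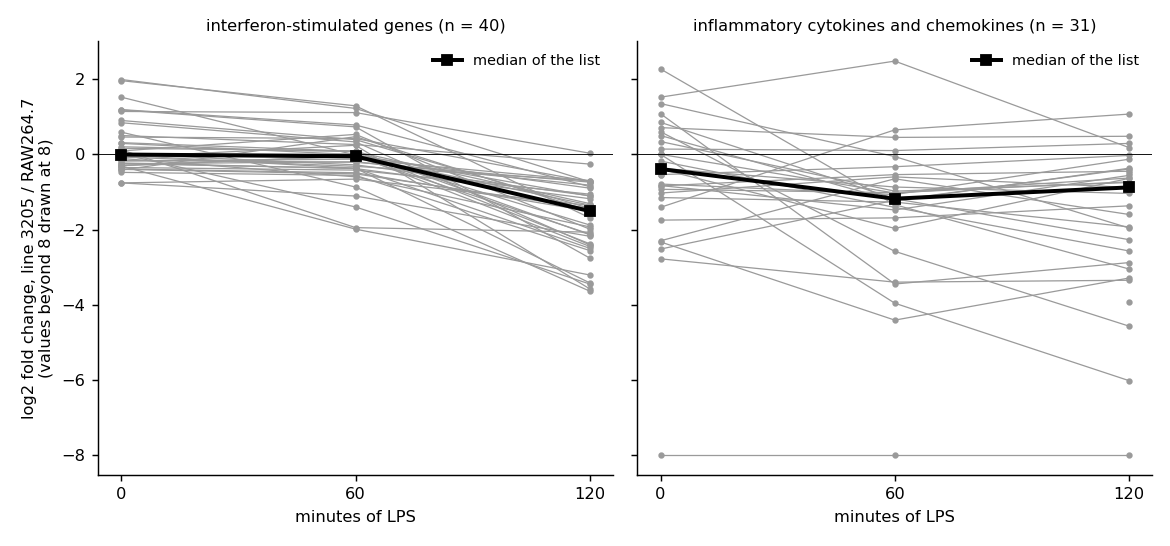
Log2 fold change of line 3205 over RAW264.7 at 0, 60 and 120 min for interferon-stimulated genes (left, 40 genes) and cytokine and chemokine genes (right, 31 genes, some not tested at 60 min), with a grey line per gene and a black line for the median. The median of the interferon-stimulated genes runs -0.00, -0.06 and -1.51 over the times, and that of the cytokine genes runs -0.39, -1.18 and -0.88.

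Ifih1, which encodes the RNA sensor MDA5, had 4054 and 1451 normalized reads in line 3205, against 31978 and 22104 in RAW264.7 (log2 fold change -3.45 ± 0.60, adjusted p = 0.0041). At 0 min its log2 fold change was 0.01. Irf1, a transcription factor gene of the interferon pathway, had 1014 and 507 in line 3205, against 10458 and 7006 in RAW264.7 (-3.58 ± 0.65, adjusted p = 0.0056, and 0.055 without RAW264.7 replicate 1). For both genes every RAW264.7 library lay several-fold above every line 3205 library. Tor3a, an interferon-responsive gene of the torsin family, had 6110 and 4935 in line 3205, against 14790 and 13193 in RAW264.7 (-1.35 ± 0.17, adjusted p = 0.00063). Trim25, an E3 ligase gene of RNA sensing, had 10596 and 11483 in line 3205, against 17940 and 17799 in RAW264.7 (-0.70 ± 0.15, adjusted p = 0.012), and its call was lost without RAW264.7 replicate 1 (0.078), without RAW264.7 replicate 2 (0.062) and without line 3205 replicate 1 (0.072).

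Promoter sequences of 3 of these LPS-induced genes (RefSeq, GRCm38.p6, 250 bases before to 50 after the start, shown 5′ to 3′ on the gene's strand) are given because each carries a motif of the factor class that acts on its group. Capitals mark the motif match in each. They are GAAANNGAAA, the interferon-stimulated response element, in Ifih1 (chr2:62646206-62646505, minus strand), TTCNNNGAA, the gamma-activated site, in Irf1 (chr11:53769764-53770063, plus strand, the one with a match of its 2 listed promoters), and GGGANTTTCC, an NF-kB site, in Il6 (chr5:30012864-30013163, plus strand).
Ifih1: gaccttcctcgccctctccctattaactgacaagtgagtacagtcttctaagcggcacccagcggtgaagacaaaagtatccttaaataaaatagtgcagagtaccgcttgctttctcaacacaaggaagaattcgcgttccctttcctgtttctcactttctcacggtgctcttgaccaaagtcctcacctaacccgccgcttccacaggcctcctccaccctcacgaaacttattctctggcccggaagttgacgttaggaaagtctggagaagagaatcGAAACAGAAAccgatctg
Irf1: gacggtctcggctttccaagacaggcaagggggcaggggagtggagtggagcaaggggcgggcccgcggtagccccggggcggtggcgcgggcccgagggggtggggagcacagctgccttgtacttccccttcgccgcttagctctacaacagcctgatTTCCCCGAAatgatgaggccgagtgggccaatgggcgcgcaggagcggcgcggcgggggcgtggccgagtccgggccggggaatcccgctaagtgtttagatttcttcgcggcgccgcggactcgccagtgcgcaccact
Il6: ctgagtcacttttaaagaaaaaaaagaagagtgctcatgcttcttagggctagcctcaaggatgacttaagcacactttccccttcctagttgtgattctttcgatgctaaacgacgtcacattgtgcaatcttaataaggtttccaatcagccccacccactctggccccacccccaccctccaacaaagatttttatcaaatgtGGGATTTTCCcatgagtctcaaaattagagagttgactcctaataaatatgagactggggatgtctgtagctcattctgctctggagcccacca
Searched on both strands, the first motif was found in 3.44% of all 32851 promoters in the table, the second in 8.30% and the third in 0.411%, and matches of different motifs overlapped in 25, 27 and 4 promoters of these. In line 3205 the genes with these promoters had a lower message at 120 min by the values above. The promoter table held 11181 of the 17450 tested genes, 30 of the 40 interferon-stimulated genes and 19 of the 31 cytokine genes, under 80% of each, so a check of shares over the lists is void.

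The LPS receptor and its kinases showed no single direction. Of 28 tested, 5 were called higher and 5 lower (17.9% each), beside 7.94% and 5.99% of all genes. The median was -0.27. With the replicate block 6 were called higher and 12 lower, beside 14.7% and 12.6% of all genes. Of the 5 called higher, 3 lie on chromosome 1 or 15. Of the genes there that averaged at least 50 normalized reads, 32.5% were called higher. Without RAW264.7 replicate 1, RAW264.7 replicate 2, line 3205 replicate 1 and line 3205 replicate 2 in turn, 1, 2, 3 and 1 were called lower, and 3 higher without line 3205 replicate 1. Tlr4 had 3605 and 3237 normalized reads in line 3205, against 1524 and 1942 in RAW264.7 (log2 fold change 0.99 ± 0.14, adjusted p = 0.0015). Irf3, the factor that acts on Ifnb1, had 775 and 813 in line 3205, against 1349 and 1375 in RAW264.7 (-0.78 ± 0.13, adjusted p = 0.0028). Cd14, the LPS coreceptor gene, named after its values were seen, had 42043 and 31021 in line 3205, against 98517 and 71377 in RAW264.7 (-1.22 ± 0.28, adjusted p = 0.018, with 0.15 without RAW264.7 replicate 1 and 0.13 without line 3205 replicate 2). The receptor message was thus higher and the coreceptor message lower in line 3205.

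Macrophage identity genes were checked as well as compared. Csf1r, the receptor for the macrophage growth factor, had 50923 and 61056 normalized reads in line 3205, against 57072 and 57133 in RAW264.7, and Ptprc (CD45) had 18621 and 16304 in line 3205, against 18614 and 14522 in RAW264.7. Both lines thus expressed these markers, with libraries that overlap between the groups. Of 37 identity genes tested, 8 were called higher (21.6%) and 9 lower (24.3%), beside 7.94% and 5.99% of all genes. The number called higher was 5 without RAW264.7 replicate 1, RAW264.7 replicate 2 or line 3205 replicate 1, and the number called lower was 5 without RAW264.7 replicate 1 or line 3205 replicate 2. The scavenger receptor gene Msr1 had 164 and 311 in line 3205, against 16190 and 12928 in RAW264.7 (log2 fold change -6.00 ± 0.71, adjusted p = 0.00047). The transcription factor gene Maf had no read in line 3205, against 69.3 and 90.9 normalized reads in RAW264.7, at least 80.1-fold lower. C1qb, a chain of the complement component C1q, had 1370 and 2576 in line 3205, against 10.7 and 16.4 in RAW264.7 (7.04 ± 0.61, adjusted p = 6.3e-05). Another C1q chain went the same way: C1qc had 971 and 2176 in line 3205, against 10.7 and 26.5 in RAW264.7 (6.34 ± 0.88, adjusted p = 0.0012), and was named after its values were seen. Line 264 at 120 min did not show this rise of C1qb (-1.44, adjusted p = 0.18), and line 3205 was called higher than line 264 (8.48, adjusted p = 2.8e-05). The Fc receptor gene Fcgr1, also named after its values were seen, had 3751 and 4652 in line 3205, against 1512 and 1759 in RAW264.7 (1.36 ± 0.19, adjusted p = 0.0011).

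Genes of lipid handling and of the unfolded protein and integrated stress pathways were counted next. Over all genes, 7.94% were called higher and 5.99% lower, or 14.7% and 12.6% with the replicate block. Of 20 lipid efflux and scavenger genes, 5 were called higher (8 with the replicate block, and 3 without RAW264.7 replicate 1 or either line 3205 library) and 4 lower. Among them was Lpl, the lipoprotein lipase gene, with 14045 and 13232 normalized reads in line 3205 against 98859 and 64966 in RAW264.7 (log2 fold change -2.56 ± 0.41, adjusted p = 0.0028). Of 24 stress response genes, 0 were called higher and 8 lower (33.3%), with a median of -0.49, and 8 were called lower at 0 min too. Without RAW264.7 replicate 1, 5 were called lower at 120 min. The count of 0 higher was the same at an unadjusted p below 0.05, by edgeR, by DESeq2 and with the replicate block. Trib3, a pseudokinase gene that responds to ATF4, had 134 and 165 in line 3205, against 1133 and 784 in RAW264.7 (-2.66 ± 0.22, adjusted p = 5.2e-05). Asns, the asparagine synthetase gene, had 4650 and 5066 in line 3205, against 15765 and 12630 in RAW264.7 (-1.54 ± 0.17, adjusted p = 0.00029). Both are genes of amino acid shortage, and both were lower in each line 3205 library than in each RAW264.7 library.

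Of 22 p53 target genes, 2 were called higher (9.09%) and 6 lower (27.3%), and fewer were called lower when any 1 of the 4 libraries was left out. Beside this list and the others of this paragraph, 7.94% of all genes were called higher and 5.99% lower. With the replicate block these shares of all genes were 14.7% and 12.6%. Of 17 plasminogen activation and matrix protease genes, 4 were called higher and 6 lower (2 lower without RAW264.7 replicate 1 and 1 without line 3205 replicate 2), and Mmp9, a gelatinase gene, had 832 and 772 normalized reads in line 3205, against 140 and 226 in RAW264.7 (log2 fold change 2.17 ± 0.28, adjusted p = 0.00081). Of 21 integrin and adhesion genes, 4 were called higher and 4 lower (7 and 9 with the replicate block, and 2 lower without RAW264.7 replicate 1 or line 3205 replicate 2). Itgal, the alpha chain of LFA-1, had 2529 and 3384 in line 3205, against 1209 and 918 in RAW264.7 (1.47 ± 0.18, adjusted p = 0.00061), while Cd44, the hyaluronan receptor gene, had 13198 and 7289 in line 3205, against 45365 and 30301 in RAW264.7 (-1.92 ± 0.31, adjusted p = 0.0030). Of 16 osteoclast lineage genes, 4 were called higher and 3 lower (7 lower with the replicate block, 0 without RAW264.7 replicate 1, 5 without RAW264.7 replicate 2 and 1 without line 3205 replicate 1). Of 26 glycolysis and hypoxia genes, 4 were called higher and 0 lower (0 lower also at an unadjusted p below 0.05, by edgeR and by DESeq2, and 2 with the replicate block). Of these, 0 were called higher without RAW264.7 replicate 1, 2 without RAW264.7 replicate 2 and 1 without line 3205 replicate 1, and 8 with the replicate block.

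Without the replicate block, other lists lay near the background of 7.94% called higher and 5.99% lower. With the block, 14.7% of all genes were called higher and 12.6% lower. The Polycomb, MHC class II and cell cycle lists then had larger shares called higher than all genes. Of 35 cell cycle and DNA replication genes, 3 were called higher and 1 lower (9 and 3 with the replicate block, and 1 to 5 higher with 1 library left out), but the cyclin D2 gene Ccnd2 had 3932 and 3524 normalized reads in line 3205, against 246 and 252 in RAW264.7 (log2 fold change 3.89 ± 0.24, adjusted p = 7.5e-06). Of 34 lysosomal and V-ATPase genes, 2 were called higher and 3 lower (5 and 6 with the replicate block, and 1 and 1 when any 1 of the 4 libraries was left out), although the cathepsin gene Ctsh had 16601 and 9268 in line 3205, against 300 and 139 in RAW264.7 (5.92 ± 0.54, adjusted p = 9.0e-05). Of 25 Polycomb complex genes, 1 was called higher and 1 lower (0 to 2 higher with 1 library left out), and 9 and 2 with the replicate block. The 1 called lower was Cbx2, with no read in line 3205 against 33.3 and 83.3 normalized reads in RAW264.7, at least 58.8-fold lower. Of 20 MHC class I genes, 1 was called higher and 1 lower (3 lower with the replicate block), and of 12 MHC class II genes 1 higher and 0 lower (4 and 1 at an unadjusted p below 0.05, 1 and 0 by edgeR, 3 and 0 by DESeq2, and 5 and 1 with the replicate block). Of 24 sterol genes, 1 was called higher and 0 lower, with 2 and 0 at an unadjusted p below 0.05, 1 and 0 by both edgeR and DESeq2, and 2 and 0 with the replicate block.

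**Figure D4:**
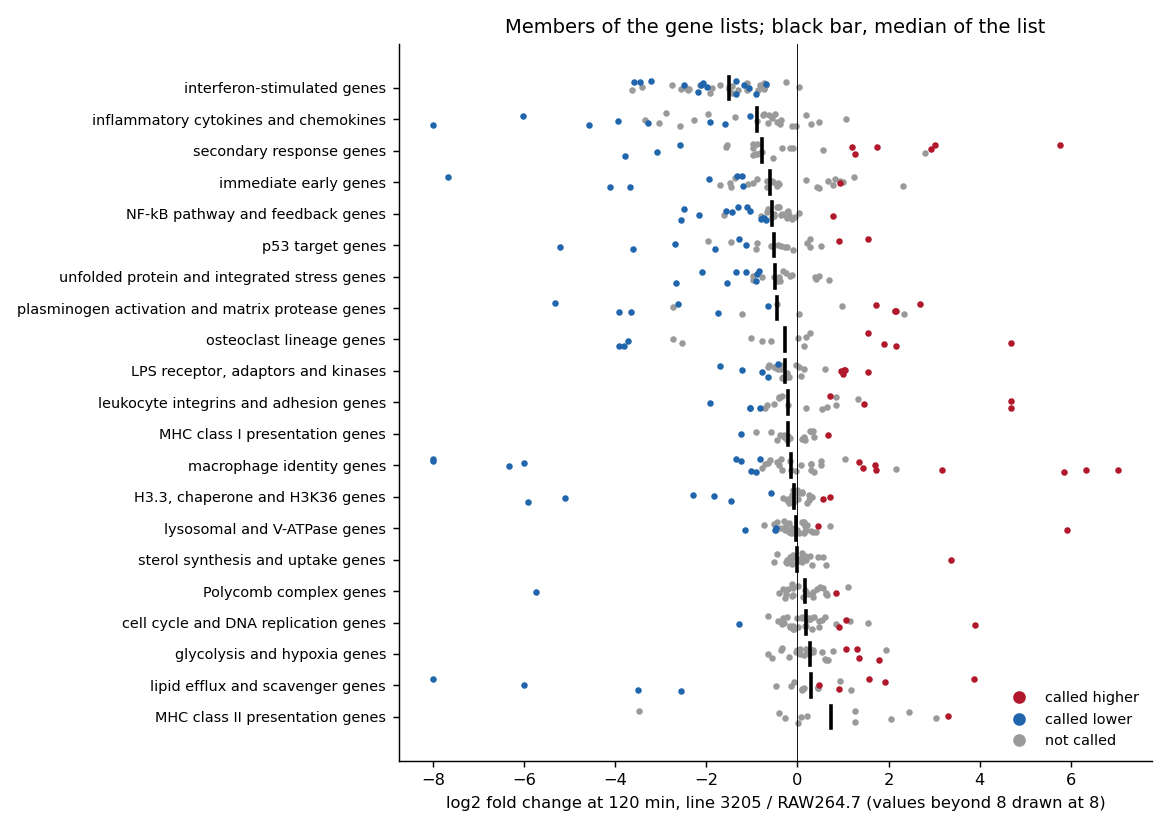
Log2 fold change of line 3205 over RAW264.7 at 120 min for each tested member of 21 gene lists with at least 10 tested members, 1 point per gene and a black bar for the list's median (members beyond 8 on the log2 scale are drawn at 8). The bar of the interferon-stimulated genes is at -1.51 and that of the cytokine genes at -0.88, while that of the sterol genes is at 0.00.

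Markers of other cell types were read for both lines. No fibroblast marker and no epithelial marker passed the filter. Beside the counts of called markers in this paragraph, 7.94% of all tested genes were called higher and 5.99% lower. The 10 listed neutrophil markers summed to 143 and 123 normalized reads in line 3205, against 1 and 14 in RAW264.7, while S100a9, Ngp and Mpo had no read in any of the 4 libraries. Of 5 tested, 2 were called higher: Prtn3, the proteinase 3 gene, had 111 and 77.8 in line 3205, against 0.0 and 3.8 in RAW264.7 (a ratio of 48.9 with a 95% counting interval of 16.5 to 238), and Elane had 9.0 and 4.2 in line 3205, against no read in RAW264.7, a call lost when any 1 of the 4 libraries was left out, at adjusted p from 0.090 to 0.20. The B cell markers summed to 483 and 1216 in line 3205, against 6330 and 5628 in RAW264.7, nearly all of it Ighm, the immunoglobulin heavy chain gene, while Ms4a1 and Pax5 had at most 1 read. Of the 3 tested, Cd79b was called higher, with 43.9 and 20.1 normalized reads in line 3205 against 4.0 and 1.3 in RAW264.7 (3.20 ± 0.79 on the log2 scale, adjusted p = 0.024), a call lost when any 1 of the 4 libraries was left out, at adjusted p from 0.054 to 0.15. Ighm was called lower (log2 fold change -3.05 ± 0.57, adjusted p = 0.0061, and 0.051 without RAW264.7 replicate 1). The dendritic cell markers summed to 221 and 103 in line 3205, against 420 and 395 in RAW264.7, with Xcr1 and Zbtb46 called lower of 7 tested, a call lost for Xcr1 without RAW264.7 replicate 1 (adjusted p = 0.061) and for Zbtb46 without RAW264.7 replicate 1 (0.15), RAW264.7 replicate 2 (0.082) or line 3205 replicate 2 (0.16). The T and NK cell markers summed to 241 and 122 in line 3205, against 250 and 104 in RAW264.7, nearly all of it Lck. Of 4 tested, Cd2 was called higher, with 9.7 and 4.2 in line 3205 against no read in RAW264.7 (21 reads against 0, at least 3.61-fold higher), a call lost when any 1 of the 4 libraries was left out, at adjusted p from 0.068 to 0.18. The erythroid and megakaryocyte markers summed to 53 and 65 in line 3205, against 51 and 71 in RAW264.7. The part of these markers in the results was not tested.

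Line 264 at 120 min was set against the same 2 RAW264.7 libraries, so the comparisons of both lines with RAW264.7 share their controls. In it 1279 genes were called higher (7.33%) and 1069 lower (6.13%). Line 3205 set directly against line 264 gave 834 genes higher (4.78%) and 736 lower (4.22%). With the replicate block 1715 were higher (9.83%) and 1685 lower (9.66%). Leaving out 1 library at a time lowered the count of 1570 to 717 (without line 3205 replicate 1), 772 (without line 264 replicate 1), 814 (without line 264 replicate 2) and 908 (without line 3205 replicate 2). The loss of Lpl was smaller in line 3205 than in line 264, with a difference of 7.34 on the log2 scale (adjusted p = 5.8e-06). H3f3a was lower in line 3205 than in line 264 (-2.10, adjusted p = 0.00095), while H3f3b was not called between them (-0.45, adjusted p = 0.10). Among interferon-stimulated genes, line 264 over RAW264.7 had 8 of 40 called lower and a median of -1.20, beside 14 and -1.51 for line 3205. The cytokine and chemokine list ran the other way, with 11 of 31 lower and a median of -1.5 in line 264, beside 8 and -0.88. For the NF-kB list line 264 had 5 of 33 lower and a median of -0.22, beside 12 and -0.56. For the immediate early list it had 4 of 32 lower and a median of -0.15, beside 7 and -0.61.

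The difference in response, that is the change by 120 min of LPS in line 3205 minus that in RAW264.7, was called for 1 gene (0.00573% of those tested), and 0 were called higher. At an unadjusted p below 0.05, limma put 392 higher and 432 lower of 17450 tested. Together these are under the share of 0.05 that would pass with no difference in any gene. By adjusted p, edgeR called 2 higher and 2 lower, DESeq2 50 and 41, and the replicate block 50 (0.287%) and 69 (0.395%). The gene was Dusp1, which encodes a phosphatase that switches off MAP kinases. At 120 min it had 3629 and 2948 normalized reads in line 3205, against 13141 and 12179 in RAW264.7. At 0 min it had 1043 and 752 in line 3205, against 243 and 200 in RAW264.7. So Dusp1 was higher in line 3205 before LPS and lower after it. Its log2 change with LPS was 1.88 ± 0.21 in line 3205 and 5.84 ± 0.21 in RAW264.7, a difference of -3.95 ± 0.30 (adjusted p = 0.0028). The call held with each of the 12 libraries left out in turn, at adjusted p up to 0.047.

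With the replicate block, the response difference was also called for Hdc, the histidine decarboxylase gene (-4.98, adjusted p = 0.10 without the block and 0.007 with it), and for S1pr1 (4.06, adjusted p = 0.10 and 0.014). Ifih1 (-3.47), Il6 (-6.02) and Irf1 (-3.49) were called with the block at adjusted p of 0.014, 0.031 and 0.047. Hdc at 120 min had 118 and 84.7 normalized reads in line 3205, against 1048 and 708 in RAW264.7. Interferon-stimulated genes as a list had a median response difference of -1.85, beside -0.00 over all genes. The only call was outside this list, and with the replicate block 3 of the 40 were called lower. In the authors' deposited table of primary macrophages, 187 genes rose with LPS. Of the 178 of these tested here, 11 were called higher (6.18%) and 49 lower (27.5%) in line 3205 at 120 min. Beside them, 7.94% of all genes were called higher and 5.99% lower. The median of the 178 was -0.73 at 120 min and -0.38 at 0 min. With the replicate block 15 were called higher and 79 lower, when 14.7% and 12.6% of all genes were. Line 264 over the same RAW264.7 libraries had 12 called higher and 43 lower, beside 7.33% and 6.13% of all genes, with a median of -0.51.

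Position along the genome went with the fold change. Over 11093 genes with a mean of at least 50 and a RefSeq position, the median log2 fold change was 0.54 on chromosome 15 (429 genes) and 0.42 on chromosome 1 (639 genes), and it lay between -0.11 and 0.02 on each of the other 18 chromosomes. On chromosome 15, 156 genes were called higher and 4 lower. On chromosome 1 the 478 genes starting below 160 Mb had a median of 0.53, and the 161 genes from there on one of -0.05, a boundary chosen after the values were seen. H3f3a lies beyond it. Chromosomes 1 and 15 held 9.63% of these genes and 33.3% of the genes called higher (347 of 1041). Of their genes, 32.5% were called higher, against 6.92% of the genes elsewhere. In every same-numbered pair of libraries at 0, 60 and 120 min the median was between 0.45 and 0.60 on chromosome 15, between 0.38 and 0.44 on chromosome 1, and between -0.15 and 0.05 on the others. Line 264 over RAW264.7 had a median of -0.00 on chromosome 15 and of 0.43 on chromosome 1. DNA copy number was not analysed here, and its part in these medians was not tested. Of the genes named above with higher levels, Slc1a3 lies on chromosome 15, and Klhl30, Ier5 and Ptgs2 lie on chromosome 1.

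**Figure D5:**
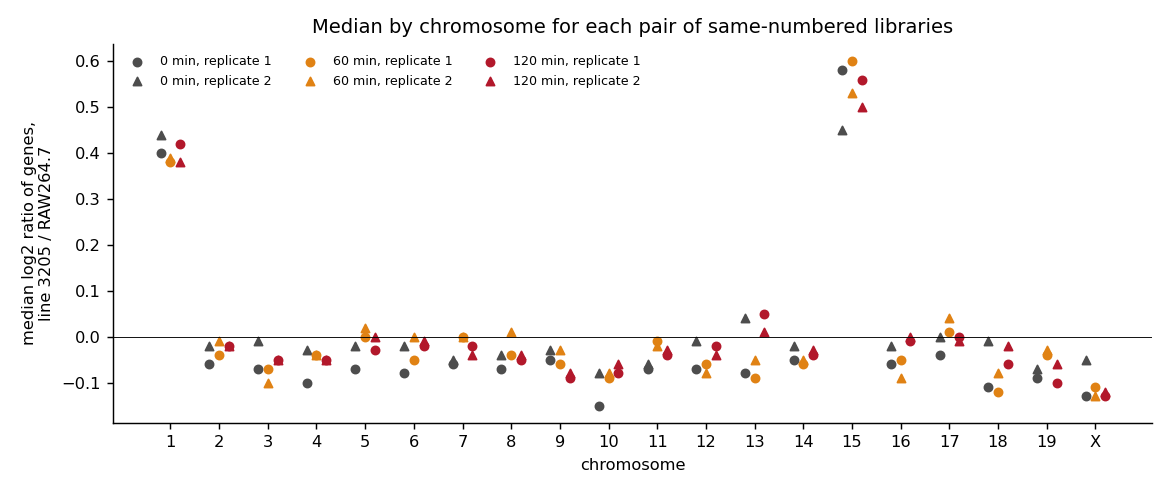
Median log2 ratio of line 3205 over RAW264.7 per chromosome (horizontal axis), 1 point for each same-numbered pair of libraries at 0, 60 and 120 min, over genes averaging 50 normalized reads or more. Chromosomes 1 and 15 stand at 0.38 to 0.60 in each pair, above all others, which stay between -0.15 and 0.05.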

How the data were processed

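RNA of the cell lines was taken with an RNeasy kit and made into Illumina TruSeq libraries, per the labels' protocols. The submitters' processing notes name Trim Galore 0.5.0, STAR 2.4.2, featureCounts of Subread 1.4.6, DESeq2, R 3.4.0 and mm10. No source used here states whether counting used strand. The deposited values are gene signal: read counts divided by 1 size factor per library by the authors, which was seen from the values, since 100.0% of them came out as whole reads within 0.1 read after rescaling. Log2 fold changes with p-values and adjusted p-values for each comparison were also deposited. The test planned for normalized values was used, and a count test had been planned as the main one only for raw counts.

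The test was limma 3.58.1 (R 4.3.3, trend on) for log2(value + 1). Its model had a mean for each group and took in the 12 libraries of the 120 min table (lines 3205, 264 and RAW264.7 at 0 and 120 min). The 60 min table was fitted in the same way, and both tables hold the same 0 min libraries. Genes needed a mean of at least 1. A floor of 3 reads over a group and 95% exact counting intervals were used for genes with few reads, and these cover counting error only. edgeR 4.0.16 and DESeq2 1.42.0 were run on the recovered reads as alternatives. The script was tested on simulated counts with the same dispersion for every gene. It called 19 of 100 genes changed by a log2 of 1, and 97 of 100 changed by a log2 of 2. Of its 129 calls, 13 were false. Changes of the smaller size can thus go uncalled.

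Same-numbered libraries deviated together from their group means: the correlations over the 15 pairs of groups ran from 0.35 to 0.72 at 120 min, and at 60 min from 0.28 to 0.76. Mitochondrial genes took 0.22% to 0.62% of reads in replicate 1 libraries and 1.16% to 1.70% in replicate 2 libraries. The numbers were therefore treated as pairing the libraries in the fit with a replicate block.

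The gene lists (28), the panel of 18 genes and the comparison were chosen with earlier results of these data known. Genes named were that panel, the 10 largest called changes in each direction with a mean of at least 50 in the higher group, up to 4 members per list, and up to 5 genes per direction of the response difference. Other genes, called or not, were named after their values were seen. RefSeq positions (GRCm38.p6) were found for 92.5% of tested genes. A list of genes raised by LPS came from the authors' deposited table of primary macrophages, whose ChIP values are not reported here, and the other samples were not used.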

Additional observations from a re-analysis of the deposited data

Results flagged for a closer look

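Dusp1, the MAP kinase phosphatase gene, differed between the lines in its change with LPS: the log2 difference was -3.95 ± 0.30 by limma (adjusted p = 0.0028), with a change of 1.88 in line 3205 and of 5.84 in RAW264.7. Line 3205 was higher at 0 min, at 1043 and 752 normalized reads against 243 and 200 in RAW264.7, and lower at 120 min in both libraries. It is listed because the change under the same contrast was tested to differ between the 2 lines.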

How the results depend on the processing

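Against 1385 higher and 1045 lower in line 3205, the replicate block gave 2563 and 2190, edgeR with the replicate block 2696 and 1925, and limma over only the groups compared 635 and 482. A fold change of at least 2 left 676 lower, and outside chromosomes 1 and 15 there were 948 higher and 987 lower. Leaving out 1 library gave 672 to 856 higher and 437 to 747 lower. Of the calls, 57.0% were higher, and this was 59.9% with TMM scaling, 52.6% with upper-quartile scaling, 60.9% by edgeR and 54.1% by DESeq2. The 1570 calls between line 3205 and line 264 became 3400 with the replicate block, 3433 by edgeR with the block, 275 over only those groups, 1003 with a fold change of at least 2, and 717 to 908 with 1 library left out. The 1744 genes called the same way at 120 and 60 min became 1113 with a fold change of at least 2 in both and 3302 with the replicate block.

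The response difference rested on the setting: 1 call by limma, but 119 with the replicate block, 135 by edgeR with the block, 91 by DESeq2, 24 with 18 libraries in 1 fit, 8 with a pseudocount of 5, 6 without the trend, 5 with no filter, 4 by edgeR, 2 over only the groups compared, and 1 to 4 with 1 library left out. The fits over 18 libraries, edgeR with the block and the genes outside chromosomes 1 and 15 were chosen after seeing the data.

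Of 159 named genes, the block left 147 on their side of the threshold and brought 12 past it, and it took no call away. Over only the groups compared, 30 calls were lost. Direction turned for genes that were not called: Cd4 was -0.09 by edgeR with the block, -0.12 by edgeR and -0.99 to 1.67 with 1 library left out. Lck was -0.04 by DESeq2, -0.03 with upper-quartile scaling and -0.60 to 0.62 with 1 library left out. Csf1r was 0.01 by edgeR with the block, 0.02 by edgeR and -0.17 to 0.10 with 1 library left out. With 1 library left out, Ptprc ran from -0.10 to 0.26, Itga2b from -1.69 to 0.56, Fos from -0.99 to 0.15 and Setd2 from -0.23 to 0.08. The cause was not tested. Line 3205 libraries were deeper, so a gene at 0 in RAW264.7 allows a higher level than one at 0 in line 3205. With 2 libraries a group, leaving out 1 leaves a group of 1, so a call can be lost whichever library is dropped. A call lost in this way therefore need not rest on that library. These fits were run without the replicate block.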
